A study of Mus musculus with 12 samples.

Results

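Microtubules are built from paired α- and β-tubulin, and mammals carry several genes for each subunit. The 10 isotype genes described here were Tuba1a, Tuba1b, Tuba4a and Tuba8 among the α-tubulins and Tubb2a, Tubb2b, Tubb3, Tubb4a, Tubb4b and Tubb5 among the β-tubulins. They were taken by symbol from a table of 55450 genes, and all 10 were found. The table covers male mice of 7 to 9 weeks, either Vaultrc5+/+ (wild type) or Vaultrc5-/- (knockout). Vaultrc5 encodes a vault RNA, a small non-coding RNA of the vault particle. Brain and liver were sequenced as ribosome-depleted total RNA from 3 wild-type and 3 knockout samples each, giving 12 libraries. The control samples bear flx in their titles and wild-type in the genotype field. No label says which brain pieces were taken, how the allele was made, or whether a brain and a liver library of one number came from one mouse. Where separate animals are not stated, p-values measure the spread between these samples only.

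The α and β isotypes of a cell are incorporated into the same polymers and differ mainly in their C-terminal tails, which project from the microtubule and carry most of its modifications. In textbook accounts Tuba1a, Tubb2a, Tubb2b and Tubb3 belong to neurons, Tubb4a to neurons and myelinating oligodendrocytes, and Tubb4b and Tubb5 to many tissues. The final tyrosine of most α-tubulins can be removed and added back, the tyrosination cycle, and several of these genes cause malformations of the cerebral cortex when mutated.

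The last stretch of the coding sequence is shown for 8 members because it encodes the C-terminal tail, where the isotypes differ most. Each line gives 60 bases of the GENCODE M21 coding sequence (GRCm38), 5′ to 3′, ending with the stop codon, and capitals mark the last amino acid codon.
Tuba4a: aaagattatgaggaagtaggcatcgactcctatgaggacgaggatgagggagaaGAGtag
Tuba8: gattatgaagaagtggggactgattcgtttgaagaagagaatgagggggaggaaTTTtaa
Tubb2a: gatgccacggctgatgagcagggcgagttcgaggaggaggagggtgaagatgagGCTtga
Tubb2b: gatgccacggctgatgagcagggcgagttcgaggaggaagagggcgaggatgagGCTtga
Tubb3: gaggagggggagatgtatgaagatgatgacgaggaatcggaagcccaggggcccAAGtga
Tubb4a: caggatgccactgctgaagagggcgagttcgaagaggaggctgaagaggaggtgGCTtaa
Tubb4b: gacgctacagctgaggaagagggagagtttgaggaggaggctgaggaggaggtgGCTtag
Tubb5: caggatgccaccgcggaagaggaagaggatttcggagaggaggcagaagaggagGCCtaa
All lie in the last coding exon of their gene: Tuba4a at chr1:75215622-75215681 (minus strand), Tuba8 at chr6:121226020-121226079 (plus), Tubb2a at chr13:34074468-34074527 and Tubb2b at chr13:34127471-34127530 (minus), Tubb3 at chr8:123421623-123421682 (plus), Tubb4a at chr17:57080690-57080749 (minus), Tubb4b at chr2:25222308-25222367 (minus) and Tubb5 at chr17:35834982-35835041 (minus).

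The last codon separates the α-tubulins. Tuba4a ends in GAG, a glutamate codon, and Tuba8 in TTT, a phenylalanine codon, whereas Tuba1a and Tuba1b are known for a terminal tyrosine. Among the β-tubulins, Tubb3 ends in AAG, a lysine codon, and the other 5 in an alanine codon. Over the whole coding sequence Tuba1a and Tuba1b were 98.3% identical and Tubb2a and Tubb2b 96.5%. Aligned with gaps, Tubb3 matched the other β-tubulins in 81.4% to 83.6% of the alignment columns over the coding sequence. When these last 60 bases were aligned alone, it matched in 42.7% to 53.7% of the columns, gaps included.

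That likeness bears on the counts, because reads from near-identical stretches fit more than one gene. Of all windows of 50 bases in the longest coding transcript, 72.9% in Tuba1a and 73.8% in Tuba1b were also present in a transcript of another gene. The shares were 49.6% in Tubb2a, 39.3% in Tubb2b and 50.9% in Tubb4b, and at most 1.11% in Tuba4a, Tuba8, Tubb3, Tubb4a and Tubb5. The deposited expected counts followed the same division. Tuba1a, Tuba1b, Tubb2a and Tubb2b had fractional counts in 12 of 12 libraries and Tubb4b in 9, while Tuba4a, Tuba8, Tubb3, Tubb4a and Tubb5 had whole counts in all 12.

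The fractions cancelled once near-identical genes were added together. The sum of Tubb2a, Tubb2b and the pseudogene Tubb2a-ps2 was whole, within 0.1 count, in 12 of 12 libraries. The sum of Tubb4b, the pseudogenes Tubb4b-ps1 and Tubb4b-ps2, and Gm16165 was whole in 12 of 12. For Tuba1a and Tuba1b it took 18 genes, namely these genes, Tuba1c and 15 others that share windows with them, and those 15 held 0.425% to 0.587% of the sum in brain and 2.26% to 4.51% in liver. The level of a single gene in these 3 families therefore includes the split of shared reads, whose error the spread between replicates does not hold.

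The libraries held 14844937 to 18567362 rounded counts (brain) or 23247425 to 27155478 (liver). Tubulin reads were a small part of them, with 0.225% to 0.282% assigned to the 10 genes in brain libraries and 0.0310% to 0.0396% in liver libraries. Vaultrc5 had 33 to 48 counts in wild-type liver and 1 to 4 in wild-type brain, and 0 counts in all 6 knockout libraries. The summed level of 5 neuron markers (Snap25, Syt1, Rbfox3, Nefl, Nefm) was 398 to 525 in brain and 3.12 to 4.2 in liver, and that of 4 hepatocyte markers (Alb, Apoa1, Ttr, Cps1) was 24531 to 40399 in liver. In brain the hepatocyte sum was 0.303 to 369, and in the libraries where it was high (wild-type replicates 1 and 3, knockout replicate 1) it was nearly all Ttr, which the choroid plexus also expresses, while Alb had 0 to 5 counts per brain library. These levels, and all below, are library-scaled counts (CPM) with TMM library sizes over the 12 libraries, divided by the exon length of the gene in kilobases, written CPM per kb, so that genes can be compared with each other. The brain libraries stood apart by replicate: 4 cerebellar granule cell markers (Cbln1, Cbln3, Gabra6, Zic1) summed to 268 and 255 in replicate 1 of wild type and knockout, 2.88 and 3.34 in replicate 2, and 60.1 and 100.4 in replicate 3.

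In wild-type brain Tuba1a was the most abundant α-tubulin and Tubb4a the most abundant β-tubulin. Tuba1a, the neuronal α-isotype, measured 175, 231 and 226 in replicates 1 to 3 (mean 211 ± 30.7, SD, n = 3). Tubb4a, the β-isotype of neurons and oligodendrocytes, measured 179.6, 157 and 205 (mean 181 ± 24.2). Their ranges overlapped, so their order was not resolved, and both lay above the members that follow.

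Tuba1b, the α-isotype present in most dividing and many resting cells, measured 113, 137 and 145 in wild-type brain. Tubb2a, a β-isotype of neurons, measured 76.8, 120.0 and 109, and Tubb3, the β-isotype used as a neuronal marker, 63.3, 79.1 and 85.6. In each of the 3 libraries Tuba1b exceeded Tubb2a and Tubb2a exceeded Tubb3, although the ranges over libraries overlapped. Tubb5 averaged 59.7 ± 11.1, Tuba4a 55.1 ± 7.98 and Tubb4b 53.1 ± 9.18, which did not differ beyond their spread. Tubb2b, a β-isotype prominent in developing neurons, stood clear below them at 20.5, 19.0 and 21.1. Tuba8, the most divergent α-isotype, was the lowest at 7.34, 3.17 and 3.17.

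**Figure D1:**
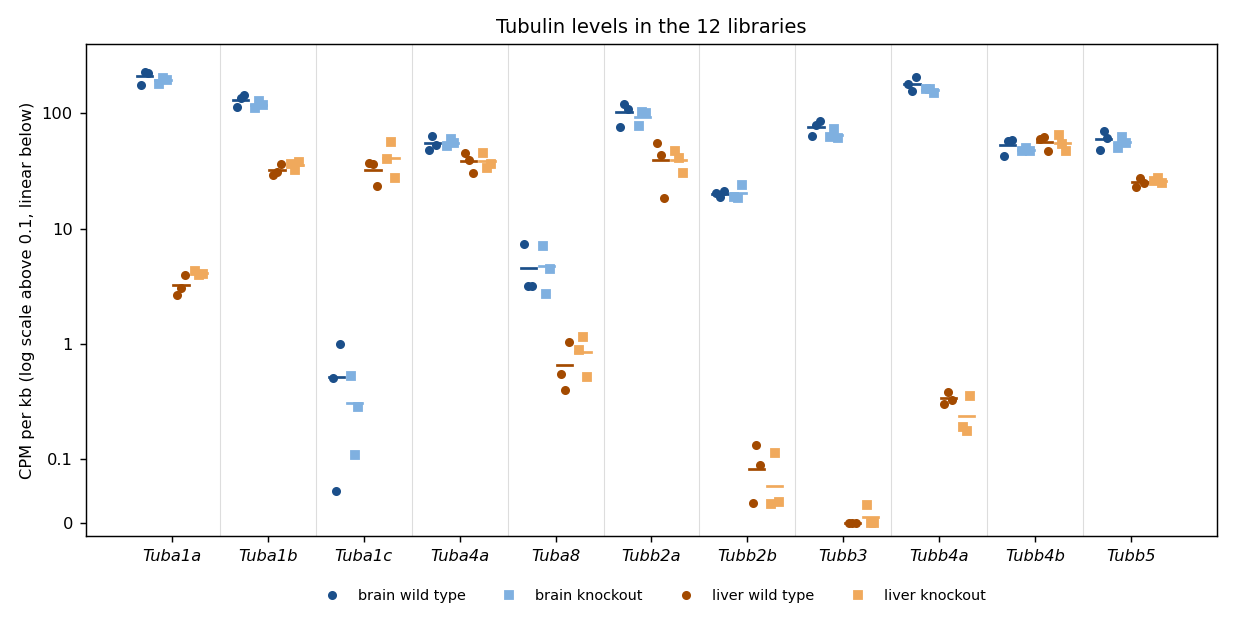
Levels of the 10 tubulin genes and of Tuba1c in each library, in CPM per kb (vertical axis, logarithmic above 0.1 and linear below). Points are libraries and short bars the means of 3 libraries per group. Tuba1a, Tubb2b, Tubb3 and Tubb4a stood far apart between brain and liver, Tubb4b overlapped, and Tuba1c lay the other way.

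In wild-type liver the order was another one, and Tubb4b led. Tubb4b, a broadly expressed β-isotype that is also a component of cilia, measured 60.04, 62.2 and 47.2 (mean 56.5 ± 8.13, n = 3). Tubb2a followed with 55.5, 43.3 and 18.5 (mean 39.1 ± 18.8), the widest relative spread among the more abundant liver members. Tuba4a, an α-isotype encoded without a C-terminal tyrosine, measured 45.4, 39.3 and 30.5, and Tuba1b 29.3, 31.3 and 36.8. The ranges of these neighbours overlapped.

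Below Tuba1b the remaining liver members separated from each other without overlap, although Tubb5 lay within the range of Tubb2a. Tubb5, a β-isotype of dividing cells and many tissues, measured 23.2, 27.7 and 25.03 in wild-type liver, and Tuba1a 2.66, 3.08 and 3.94. Tuba8 measured 0.547, 0.396 and 1.04 and Tubb4a 0.303, 0.380 and 0.329, the latter from 12 to 17 counts per library. Tubb2b had 11.4 expected counts in the 3 wild-type livers together. Tubb3 had 0 counts in each of them and 1 count in 1 of the 3 knockout livers, below the floor of 3 counts used here.

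The composition of each class followed from these levels. In wild-type brain, Tuba1a made up 52.3% ± 1.12 (SD, n = 3) of the summed α-tubulin level, Tuba1b 32.8% ± 1.22, Tuba4a 13.7% ± 1.16 and Tuba8 1.20% ± 0.808. Of the β-tubulin level, Tubb4a made up 36.9% ± 5.29, Tubb2a 20.6% ± 3.05, Tubb3 15.4% ± 0.613, Tubb5 12.1% ± 1.54, Tubb4b 10.7% ± 0.802 and Tubb2b 4.14% ± 0.537. Tuba1a and Tuba1b, which both encode a terminal tyrosine, together held the larger part of the α class in brain.

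In wild-type liver, Tuba4a made up 51.2% ± 8.21 (SD, n = 3) of the 4 α members and Tuba1b 43.6% ± 6.75, while Tuba1a fell to 4.35% ± 1.03. Of the β members, Tubb4b made up 47.2% ± 4.31, Tubb2a 30.9% ± 9.87 and Tubb5 21.6% ± 5.45, and Tubb4a, Tubb2b and Tubb3 together the small rest. Tuba1c, an α-tubulin outside the 10 that is 97.1% identical to Tuba1a in its coding bases, measured 37.1, 36.7 and 23.6 in wild-type liver. With it counted, Tuba4a held 35.6%, Tuba1b 30.7%, Tuba1c 30.01% ± 4.69 and Tuba1a 3.07% of the liver α class.

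**Figure D2:**
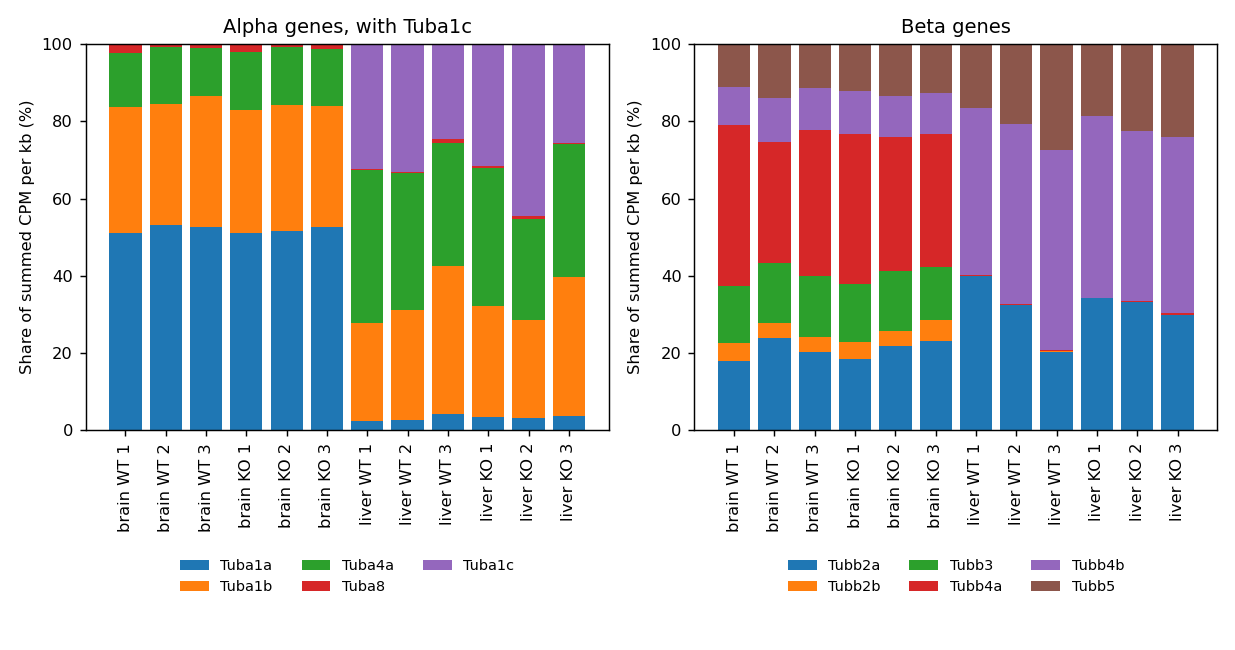
Share of each gene in the summed CPM per kb of the α-tubulins with Tuba1c (left) and of the 6 β-tubulins (right), in percent, for each of the 12 libraries. Tuba1a and Tubb4a took the largest shares in the wild-type brain libraries, at 52.2% and 36.9% on average, and Tubb4b 47.2% in wild-type liver, where Tuba1c took 30.01%.

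The summed level of the 4 α members was 402 ± 50.7 in wild-type brain and 74.7 ± 2.87 in wild-type liver, and that of the 6 β members 492 ± 56.5 and 121 ± 26.2. The ratio of α to β was 0.817 ± 0.0426 in brain. In liver it was 0.635 ± 0.136 over the members and 0.902 ± 0.129 with Tuba1c.

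The tissues were then compared by test, first among the wild-type libraries. Of the 10 members, 9 were higher in brain and 0 lower (edgeR quasi-likelihood test, Benjamini-Hochberg adjusted p under 0.05), where 43.9% of the 18850 genes tested were higher and 34.7% lower. The groups of libraries did not overlap for the same 9 members, and for 82.4% of all genes tested. The median log2 fold change was 2.41 over the members and 0.21 over all genes, so values for genes near the median are given relative to it as well.

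Tubb4a, Tubb3, Tubb2b and Tuba1a differed most. Tubb4a was higher in brain by 9.05 ± 0.20 on the log2 scale (SE, adjusted p = 6.62e-08, edgeR) and Tuba1a by 6.03 ± 0.21 (adjusted p = 1.89e-07). Against the floor of 3 counts per liver library, Tubb3 was at least 895-fold higher in brain. Tubb2b was 231-fold higher, with a 95% Poisson interval of 131 to 457 that covers the counting error of its 11.4 liver counts only (1.29, 6.15 and 3.96 in replicates 1 to 3, the first under that floor).

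The remaining members differed less. Tuba8 was higher in brain by 2.79 ± 0.48 (adjusted p = 0.000972, edgeR), Tuba1b by 2.03 ± 0.14 (6.43e-06), Tubb2a by 1.39 ± 0.38 (0.0101) and Tubb5 by 1.25 ± 0.16 (0.000171). Tuba4a was higher by 0.53 ± 0.18 (edgeR adjusted p = 0.0249), or 0.32 above the median gene, and leaving out any of 4 of the 6 libraries (brain replicates 2 and 3, liver replicates 2 and 3) took its adjusted p to between 0.0699 and 0.109. Tubb4b did not pass the test, at -0.08 ± 0.17 (edgeR adjusted p = 0.662), or -0.30 relative to the median gene. Scaled to library totals instead of TMM, the median gene moved to 1.05, Tubb4b to 0.76 (adjusted p = 0.00273) and -0.29 relative to that median, and Tuba4a to 1.37, again 0.32 above it.

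Sums that a split of shared reads cannot move were also higher in brain, although a sum does not give the direction of each gene in it. The level of the Tubb4b family sum is not given here. The 18 genes of the Tuba1a, Tuba1b and Tuba1c family summed to 631 ± 86.6 CPM in wild-type brain and 145 ± 9.24 in wild-type liver (n = 3 each). Tubb2a, Tubb2b and Tubb2a-ps2 summed to 211 ± 35.2 and 63.1 ± 30.3 CPM. Neither pair of ranges overlapped. These are levels of RNA in whole tissue, in which fewer cells of a type and less RNA per cell cannot be told apart.

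**Figure D3:**
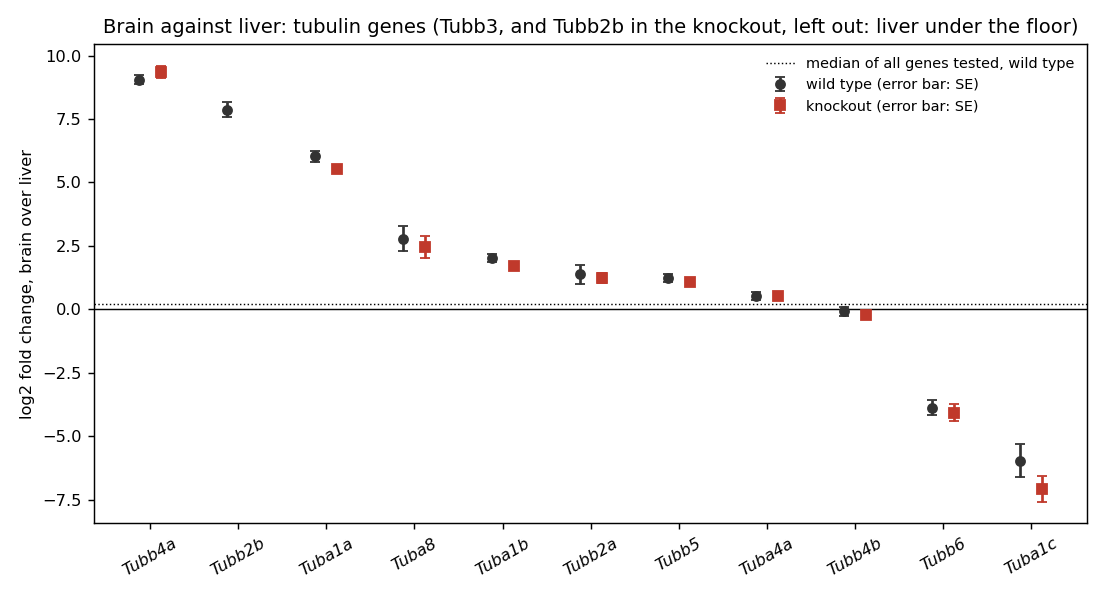
Log2 fold change of brain over liver for 9 members and for Tuba1c and Tubb6, in wild-type libraries (circles) and knockout libraries (squares), with SE bars from edgeR and 3 libraries per group. Tubb3, and Tubb2b in the knockout, are left out because their mean liver count lay under the floor of 3 per library. Tubb4b lay near 0 in both genotypes, and Tuba1c and Tubb6 lay below it.

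The knockout libraries, which share no library with the wild-type comparison, gave the same picture. Of the 10 members, 9 were higher in knockout brain than in knockout liver and 0 lower (edgeR), beside 43.5% and 35.2% of 18785 genes. The log2 fold changes were 9.35 ± 0.25 for Tubb4a, 5.53 ± 0.12 for Tuba1a, 2.46 ± 0.43 for Tuba8, 1.72 ± 0.11 for Tuba1b, 1.23 ± 0.19 for Tubb2a, 1.10 ± 0.12 for Tubb5 and 0.52 ± 0.14 for Tuba4a (edgeR adjusted p = 0.00886). Tubb2b had 1.3, 4.62 and 1.34 counts in the knockout livers, on average under the floor of 3 per library, so no single fold is given for it, and the 95% Poisson interval of its 7.26 counts put the ratio of brain to liver at 173 to 859. Tubb3 had 1 count in the 3 knockout livers together, and its brain level was 740 times the same floor, beside 895 times in the wild type. The fitted log2 change of Tubb2b, which was called, moved between 8.03 without knockout liver replicate 1 and 9.56 without replicate 2. Tubb4b again missed the threshold at -0.22 ± 0.13 (edgeR adjusted p = 0.161), although without knockout liver replicate 3 it was called lower in brain, at -0.35 (adjusted p = 0.0359), and with library totals it was called higher, at 0.66 (adjusted p = 0.00167).

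Promoter sequence is shown for Tubb4b and Tubb2a, whose liver ranges overlapped and of which Tubb2a was called higher in brain and Tubb4b was not. The windows hold the 250 bases before the RefSeq start (GRCm38.p6), both on the minus strand, and were searched on both strands. The motifs were the TATA box with the letters TATAAA, the CCAAT box with the letters CCAAT, the GC box with the letters GGGCGG, and the cAMP response element (CRE) with the letters TGACGTCA. Capitals mark the matches, which do not overlap.
Tubb4b (chr2:25224703-25224952): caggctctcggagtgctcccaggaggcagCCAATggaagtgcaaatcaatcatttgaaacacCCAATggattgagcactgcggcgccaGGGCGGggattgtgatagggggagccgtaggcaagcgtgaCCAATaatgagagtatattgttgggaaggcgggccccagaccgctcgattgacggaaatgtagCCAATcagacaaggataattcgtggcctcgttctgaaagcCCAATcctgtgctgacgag
Tubb2a (chr13:34078009-34078258): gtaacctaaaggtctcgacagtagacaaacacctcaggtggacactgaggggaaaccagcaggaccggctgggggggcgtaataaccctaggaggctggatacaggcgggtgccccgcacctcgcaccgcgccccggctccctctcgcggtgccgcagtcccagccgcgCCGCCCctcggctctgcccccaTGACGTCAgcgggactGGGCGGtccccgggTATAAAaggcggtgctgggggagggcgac
The Tubb4b window held 5 CCAAT matches, a number reached or passed by 0.213% of 32817 promoters, and 1 GC box. The Tubb2a window held 1 TATAAA, 1 TGACGTCA and 2 GC boxes. Of all promoters, 12.4% held a TATA box letter match, 1.55% a CRE match and 0.119% both.

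Of the 10 members, 9 had a promoter entry. Beside Tubb4b, Tubb5 held 2 CCAAT matches, Tuba1a and Tubb3 1 each, and 33.8% of all promoters held at least 1. A GC box stood in 6 of the 9 (Tuba1a, Tuba1b, Tuba4a, Tubb2a, Tubb3 and Tubb4b), and in 32.7% of all promoters. Tuba8 and Tubb4a held none of the 4 motifs. The first 9 letters of the RE1 element, TTCAGCACC, to which the neuronal gene repressor REST binds in its full form, were absent from all 9 windows and present in 0.302% of promoters. The full element stood in 0.00305% of promoters. At such low rates, absence from 9 windows says nothing about REST at these genes. These are matches of letters, and no binding was measured.

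The knockout was then compared with the wild type within brain. None of the 10 members passed the test (edgeR), and neither did any of the 18075 genes, which is 0.0%. DESeq2 called 0 genes as well, and 122 genes, or 0.675%, had an unadjusted edgeR p under 0.05, none of them a member. The fitted change lay below 0 for 7 members and above 0 for 3, with a median of -0.14 beside -0.01 over all genes. The ranges of the 2 genotypes overlapped for all 10, where 4.23% of the genes tested had ranges that did not.

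The lowest unadjusted p among the members in brain belonged to Tubb3, which measured 62.5, 73.0 and 60.7 in the knockout against 63.3, 79.1 and 85.6 in the wild type. Its log2 change was -0.23 ± 0.14 (edgeR unadjusted p = 0.157, adjusted p = 1.00). Tubb4a measured 162, 164 and 151 against 179.6, 157 and 205, a change of -0.20 ± 0.13 (unadjusted p = 0.165, edgeR). For both genes the knockout values lay within or below the wild-type range. Tuba1a measured 179.6, 204 and 196 in knockout brain, with a change of -0.13 ± 0.14, Tuba1b changed by -0.16 ± 0.13 and Tuba4a by 0.01 ± 0.13.

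**Figure D4:**
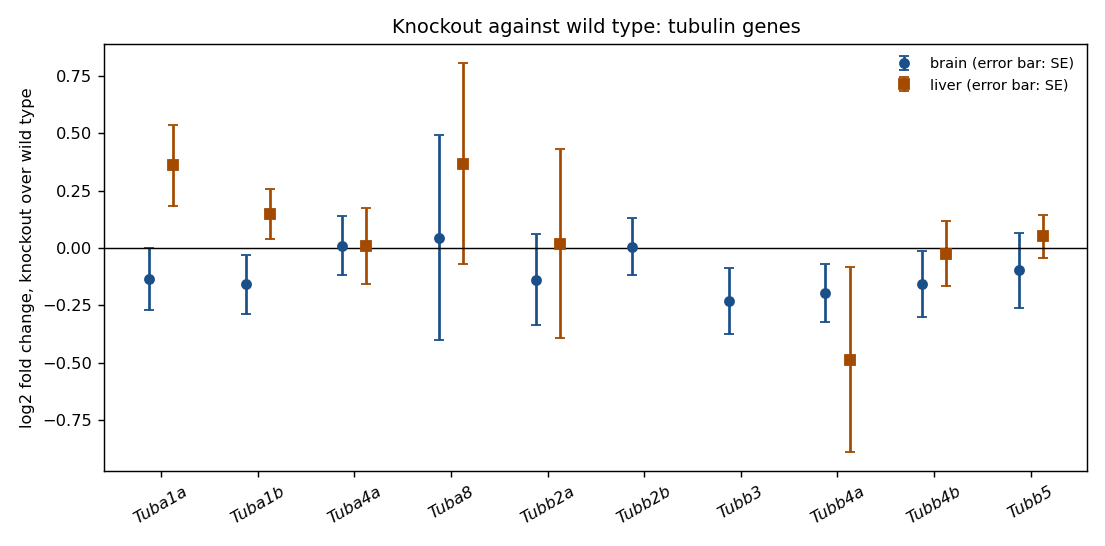
Log2 fold change of knockout over wild type for the 10 members in brain (circles) and for the 8 that could be tested in liver (squares), with SE bars from edgeR and 3 libraries per group. The values lay between -0.49 and 0.37, and no member passed the test in either tissue.

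In brain, several members moved with the replicate number in both genotypes. Tuba8 measured 7.34 and 7.04 in replicate 1 of wild type and knockout, 3.17 and 2.73 in replicate 2, and 3.17 and 4.46 in replicate 3. Replicate 1 was thus the highest in both genotypes, and it was also the one with the highest sum of cerebellar granule cell markers. Tubb2a went the other way, with its lowest values, 76.8 and 77.1, in replicate 1 of each genotype. Tuba1a, Tuba1b, Tuba4a and Tubb5 were also lowest in replicate 1 of each genotype. The sum of neuron markers was lowest there too, at 398 in the wild type and 437 in the knockout, against 449 to 525 in the other 4 libraries.

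Tubb4a followed another list. The sum of 4 oligodendrocyte markers (Mbp, Mog, Mag, Cnp) was 218, 134 and 429 in wild-type replicates 1 to 3 and 157, 238 and 152 in the knockout. Tubb4a was highest in wild-type replicate 3 and lowest in knockout replicate 3, which were also the highest and, after wild-type replicate 2, the next lowest in those markers. The part of these cell types in the values of Tuba8, Tubb2a or Tubb4a was not tested. Without replicate 2 of both genotypes, the knockout comparison in brain still called 0 of 18291 genes, and Tubb3 changed by -0.27 and Tubb4a by -0.30.

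**Figure D5:**
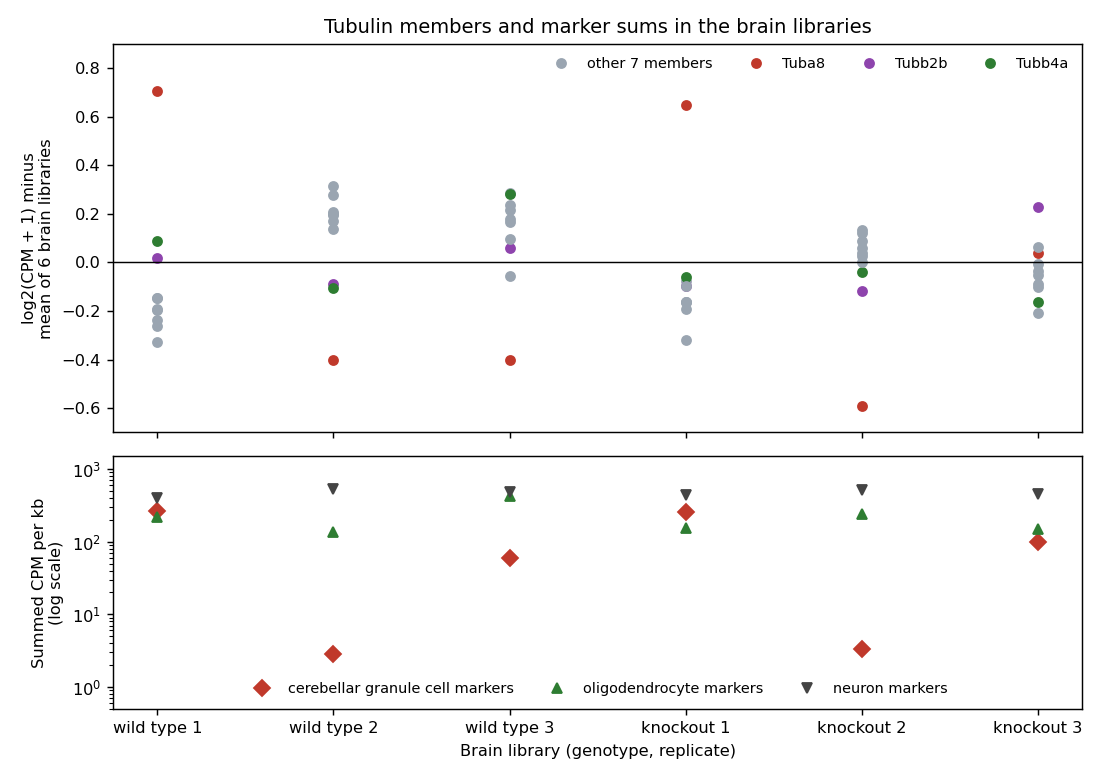
Top, log2(CPM + 1) of each member in each brain library minus its mean over the 6 brain libraries. Bottom, the summed CPM per kb of cerebellar granule cell, oligodendrocyte and neuron markers in the same libraries (logarithmic axis). Tuba8 was highest in replicate 1 of both genotypes, where the cerebellar markers summed to 268 and 255.

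In liver, 8 of the 10 members were abundant enough to be tested for the knockout, since Tubb2b and Tubb3 did not pass the filter on low counts. None of the 8 passed (edgeR), as none of 15329 genes did, which is 0.0%; 3.5% of genes had an unadjusted p under 0.05, none of them a member. DESeq2 called 10 genes and edgeR with the replicate number as a block 2, and none of these was a member. The median change was 0.04 over the members and 0.01 over all genes.

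With TMM scaling, Tuba1a was the member whose genotypes did not overlap in liver. It measured 4.32, 4.00 and 4.08 in the knockout against 2.66, 3.08 and 3.94 in the wild type, and 9.64% of the genes tested had groups that did not overlap. This separation depended on the scaling: in TPM the ranges were 4.35 to 5.52 in the knockout and 3.26 to 4.87 in the wild type, and in CPM of the library total 5.11 to 5.69 and 3.60 to 5.46, so that both overlapped. Its log2 change was 0.36 ± 0.18 (edgeR unadjusted p = 0.0790, adjusted p = 0.992), or 0.38 with the replicate block (unadjusted p = 0.0645, adjusted p = 0.803). Of its 50-base windows, 46.9% are shared with Tuba1c and 43.4% with Tuba1b, whose levels there were higher, and the part of shared reads in this difference was not tested. Tuba1c measured 40.0, 56.7 and 27.3 in the knockout against 37.1, 36.7 and 23.6, a change of 0.36 ± 0.31 (edgeR unadjusted p = 0.291), or 0.32 with the replicate block (unadjusted p = 0.0278, adjusted p = 0.765). Tuba1b measured 36.6, 32.3 and 38.2 against 29.3, 31.3 and 36.8, a change of 0.15 ± 0.11, and the 18-gene family summed to 176 ± 29.3 CPM in the knockout against 145 ± 9.24.

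The other liver members changed by less than their error or close to it. Tubb4a had 7 to 14 counts in the knockout libraries and changed by -0.49 ± 0.40 (edgeR unadjusted p = 0.263). Tuba8 changed by 0.37 ± 0.44, Tubb5 by 0.05 ± 0.09, Tuba4a by 0.01 ± 0.16 and Tubb4b by -0.02 ± 0.14. Tubb2a measured 46.8, 41.0 and 30.7 in the knockout and 55.5, 43.3 and 18.5 in the wild type, a change of 0.02 ± 0.41. Replicate 3 was the lowest in both genotypes for Tubb2a and Tubb4b and the highest in both for Tuba1b, at 36.8 and 38.2. The sum of hepatocyte markers was highest there too, at 40040 and 40399 against 24531 to 37519 in the other 4 livers. The part of that difference in the tubulin values was not tested.

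The difference between the liver and the brain effect of the knockout was tested on all 12 libraries. None of the 10 members passed (edgeR), as none of 20141 genes did (0.0%), and 2.43% of genes had an unadjusted p under 0.05. DESeq2 called 1 gene and edgeR with the replicate block 2. Tuba1a, at 0.47 ± 0.21 with liver above brain (edgeR unadjusted p = 0.0459, adjusted p = 1.00), was the single member under that unadjusted value.

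Genes that act on tubulin were described from lists, in wild-type brain against wild-type liver. Over all genes tested, 43.9% were higher in brain and 34.7% lower with TMM, and 61.7% and 21.2% with library totals. Among 24 microtubule-associated proteins, which bind and stabilise the polymer, 23 were higher and 1 lower (edgeR; 24 and 0 with library totals), with a median log2 change of 2.87 beside 0.21 over all genes. Dclk1, a doublecortin-like kinase, was higher by 10.50 ± 0.36 and Map1a, a neuronal microtubule-associated protein, by 9.48 ± 0.21. Camsap3, which binds microtubule minus ends, changed by -0.41 ± 0.11 with TMM and by 0.43 with library totals.

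Of 23 enzymes and partners of tubulin modification that were tested, 18 were higher in brain and 3 lower (19 and 0 with library totals), with a median of 2.23. Ttll7, a ligase that adds glutamate chains to the β-tubulin tail, measured 32.7 ± 4.31 in wild-type brain and 0.418 ± 0.0767 in liver, and was higher by 6.30 ± 0.20. Agtpbp1, a carboxypeptidase that trims such chains, was higher by 3.66 ± 0.13, whereas Ttll4 changed by -0.67 ± 0.15 and Ttll12 by -0.56 ± 0.13, which turned to 0.17 and 0.28 with library totals. Of 10 destabilising or severing genes tested, 7 were higher in brain and 2 lower (8 and 1 with library totals). Stmn1, the tubulin-sequestering stathmin, was higher by 5.39 ± 0.28, and Fign (fidgetin) changed by -1.81 ± 0.28 and Katna1, the catalytic katanin subunit, by -1.14 ± 0.13. With library totals Fign changed by -0.97 and stayed called (edgeR adjusted p = 0.0141), and Katna1 changed by -0.30 and was not called (adjusted p = 0.0885).

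The folding machinery depended on the scaling. Of 22 chaperonin, prefoldin and tubulin cofactor genes, 4 were higher in wild-type brain and 10 lower, with a median of -0.27 under TMM, and 15 were higher and 2 lower with library totals, which raise the median of all genes by 0.84. Arl2, a GTPase that works with the tubulin cofactors, was higher by 1.87 ± 0.16 and Vbp1, a prefoldin subunit, by 1.41 ± 0.16. Tbcel changed by -1.82 ± 0.10, and Tbca, the cofactor that holds β-tubulin, by -1.27 ± 0.16, with 13.8 ± 1.86 in brain and 33.6 ± 4.93 in liver. The direction of these 4 genes was the same with library totals, where Tbcel changed by -0.98 and Tbca by -0.44.

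Of 10 further tubulin genes, 6 were tested, and 2 were higher in wild-type brain and 4 lower, or 3 and 2 with library totals. Tuba1c changed by -5.95 ± 0.64 and Tubb6, a β-tubulin outside the 10, by -3.87 ± 0.31 (0.135 ± 0.0377 in brain, 2.01 ± 0.308 in liver). The level of Tuba1c was 0.518 ± 0.476 in wild-type brain, a spread near its mean, and 32.5 ± 7.69 in wild-type liver. Of its 50-base windows, 61.0% are shared with other genes, among them Tuba1a and Tuba1b, which were far higher in brain. The part of shared reads in its brain level was not tested. Tube1, ε-tubulin, was higher in brain by 1.02 ± 0.37, and Tubd1, δ-tubulin, changed by -0.65 ± 0.21, and by 0.19 with library totals. In the knockout comparisons 0 genes of these 5 lists passed in brain, liver or the interaction (edgeR). The smallest unadjusted p over the lists was that of Fign in brain, at -0.53 ± 0.31 (unadjusted p = 0.133, edgeR), and of Cct7, a chaperonin subunit, in liver, at -0.18 ± 0.07 (unadjusted p = 0.0367, adjusted p = 0.992, edgeR).

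Finally, the genes nearest in pattern to the 3 brain isotypes were listed among 9289 genes, by the root mean square difference of log2(CPM + 1), centred per gene, over the same 12 libraries. For Tubb3 they were Ina, the neurofilament protein α-internexin (0.0828), Cntnap2, a neuronal adhesion protein (0.0985), and Glrb, the glycine receptor β subunit (0.105). For Tubb4a they included Scn1a, a voltage-gated sodium channel (0.125), and Spock1 (0.183). For Tuba1a they were Mboat2 (0.116), Rell2 (0.133) and Epb41l1 (0.154). The 12 libraries are those of 2 tissues, so a gene with a like brain and liver level scores as near.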

How the data were processed

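Expected counts for each gene in each library are what the authors deposited, with no normalization or pooling. Trimming with cutadapt, alignment with STAR and the mm10 build are named in the submitters' processing notes, while what counted the reads, and with which strand setting, is not given in the sources used here. All 55450 identifiers matched GENCODE M21, which gave lengths and coordinates. Expected counts were rounded, and genes were filtered with filterByExpr (minimum count 10, minimum total 15), TMM-normalized and tested by robust quasi-likelihood in edgeR 4.0.16 under R 4.3.3 with a Benjamini-Hochberg threshold of 0.05, each comparison on its own 6 libraries and the interaction on 12. The SE was the log2 fold change over the root of F. Levels in CPM per kb were preferred to TPM because 3 genes of 7SL and 7SK RNA took 29.8% to 43.3% of the TPM. Shares within a class are the same on either scale. The members and gene lists were chosen with earlier results of these data known. Named beside the members are up to 2 called genes per direction and list with the largest change and at least 3 counts in every library, the listed gene with the smallest p in each knockout comparison, and the 3 nearest genes of Tuba1a, Tubb3 and Tubb4a among those with at least 10 CPM in brain. Tuba1c was added after its values were seen. Some items that these rules select are not reported here. The fits were tested on simulated counts. Wild type and knockout share replicate numbers in the titles, and no label says what the numbers mean. Across genes, deviations of same-numbered liver libraries from their group means correlated at 0.29, 0.29 and 0.36, whereas brain gave 0.58, 0.59 and 0.01. The liver numbers were therefore treated as pairs. Values are from the fits without the replicate block unless it is named, and the block changed no call of a member. Alternatives were DESeq2 1.42.0, its size factors, library totals, other filters, the replicate block, all 12 libraries together, each replicate left out, another gene length and, chosen after seeing the data, brain without replicate 2, TPM, and Tuba1c in the α class. Intervals and the floor of 3 counts cover counting error only.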

Additional observations from a re-analysis of the deposited data

How the results depend on the processing

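In the tissue comparisons the calls of 8 members (those called, other than Tubb3) and their direction held in both genotypes under every alternative with all replicates kept. Tuba4a in the wild type missed the threshold without brain replicate 2 or 3 or liver replicate 2 or 3, with leave-one-out values of 0.35 to 0.65 on the log2 scale. Library totals turned Tubb4b to 0.76 in the wild type and 0.66 in the knockout, and leave-one-out values of Tubb4b ran from -0.21 to 0.0376 and from -0.35 to -0.12. In TPM, Tubb4b had 175 in wild-type brain and 68.6 in wild-type liver. Library totals split all calls into 11635 higher and 3997 lower in wild-type brain, against 8275 and 6542 with TMM, and 11668 and 3871 against 8178 and 6611 in the knockout.

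No member was called for the knockout in brain or liver under any alternative run, but small changes turned. In brain, the replicate block took Tubb2b to -0.00115, and leave-one-out ranges were -0.0804 to 0.13 for Tuba4a, -0.35 to 0.56 for Tuba8, -0.12 to 0.0803 for Tubb2b and -0.24 to 0.0312 for Tubb5. In liver, library totals took Tuba4a to -0.0255 and Tubb2a to -0.0170, and leave-one-out ranges were -0.13 to 0.15 for Tuba4a, -0.32 to 0.36 for Tubb2a, -0.14 to 0.0718 for Tubb4b and -0.00625 to 0.11 for Tubb5. Genes called in liver numbered 10 with DESeq2, 4 with no filter, 2 with the block and 0 to 1 with a replicate left out. For the interaction DESeq2 called 1 and the block 2. The causes were not tested. In brain the numbers pair too weakly in replicate 3 to count as pairs, and the block called 0 genes there; it changed no call of a member anywhere. Brain and liver libraries of one number correlated at -0.02 to 0.08.

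With the longest coding transcript as the length, shares were 49.1% and 48.5% for Tuba1a in wild-type and knockout brain, 16.8% and 18.3% for Tuba4a, 14.5% and 13.8% for Tubb3, 13.2% and 13.3% for Tubb4b and 14.3% and 14.9% for Tubb5. In knockout liver they were 4.44% for Tuba1a, 41.2% for Tuba1b, 53.5% for Tuba4a, 27.1% for Tubb2a and 49.8% for Tubb4b. With Tuba1c in the class, liver shares were 3.07% and 3.45% for Tuba1a, 30.7% and 29.96% for Tuba1b and 35.6% and 32.1% for Tuba4a (wild type, knockout). Depth limits Tubb2b, Tubb3 and Tubb4a in liver, with at most 17 counts per library.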
